A study of Mus musculus with 12 samples.

Results

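The heat shock proteins and their DnaJ partners were followed in murine BM-derived macrophages (BMDM) 1 h after exposure to LPS, to the human antimicrobial peptide β-defensin 3 (hBD3), or to both. A gene was a member if its symbol in the probe annotation began with Hspa, Hspb, Hsp90, Hspd, Hspe, Hsph, Dnaja, Dnajb or Dnajc followed by a digit or letter. This rule took 90 probes of 64 genes, out of 16593 genes with a named probe, and each gene was represented by its probe with the highest mean signal. From their known places in the cell, 41 members were counted as cytosolic or nuclear, 11 as members of the endoplasmic reticulum (ER), 8 as mitochondrial, and 4 (Hspbap1, Dnajc4, Dnajc27 and Dnajc28) were not assigned. Macrophages were grown for 7 to 10 days from femoral marrow of Balb/c mice in 20 ng/mL M-CSF, kept overnight without M-CSF, and then left untreated or given hBD3, LPS or LPS plus hBD3. Each of the 4 groups had 3 arrays, and the design note gives 3 separate mice per group. The labels give 50 ng/mL LPS, no dose for the combination, and a dose of hBD3 in mg/mL that the methods of the study give as 5 μg/mL. No age or sex of the mice was given in the sources used here.

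Heat shock proteins hold unfolded polypeptides and help them to fold, to be transported or to be degraded. HSP70 proteins (Hspa genes) bind short hydrophobic stretches in cycles of ATP hydrolysis, DnaJ proteins bring them clients and stimulate the ATPase, nucleotide exchange factors reset them, and HSP90 proteins mature signaling proteins such as kinases and receptors. The cytosolic genes Hspa1a, Hsph1 and Dnajb1 are classical targets of heat shock factor 1, the ER genes Hspa5, Hsp90b1, Dnajc3 and Dnajb9 are targets of the unfolded protein response, and Hspd1 and Hspe1 form the chaperonin of the mitochondrial matrix. In macrophages Hsp90b1, also known as Grp94, is required for the folding of Toll-like receptors, including the receptor for LPS.

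The promoters of 5 members are shown because their letters match elements known from heat and ER stress. Of these genes Hspa1a had the largest positive difference with LPS, Hsp90b1 and Hspd1 varied with the replicate number, and Hsph1 and Dnajc3 are inducible members with detected probes. All are from RefSeq (GRCm38.p6), run 5′ to 3′ on the strand of the gene from 250 bases before its start to 50 after it, and capitals mark the element. In Hspa1a (chr17:34972107-34972406, minus strand), Hsph1 (chr5:149636266-149636565, minus strand) and Hspd1 (chr1:55087883-55088182, minus strand) the capitals are heat shock elements, searched on both strands as GAANNTTC or TTCNNGAA, where overlapping matches run together. In Hsp90b1 (chr10:86705395-86705694, minus strand) and Dnajc3 (chr14:118937682-118937981, plus strand) they are ER stress elements of the classical form, a CCAAT box and a CCACG box set apart by a fixed spacer, searched on both strands.
Hspa1a: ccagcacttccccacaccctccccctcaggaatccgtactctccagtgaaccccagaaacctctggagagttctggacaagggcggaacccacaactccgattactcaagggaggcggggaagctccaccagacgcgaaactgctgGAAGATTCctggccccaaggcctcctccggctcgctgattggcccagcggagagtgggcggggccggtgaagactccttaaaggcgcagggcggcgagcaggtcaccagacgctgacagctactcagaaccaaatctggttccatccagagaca
Hsph1: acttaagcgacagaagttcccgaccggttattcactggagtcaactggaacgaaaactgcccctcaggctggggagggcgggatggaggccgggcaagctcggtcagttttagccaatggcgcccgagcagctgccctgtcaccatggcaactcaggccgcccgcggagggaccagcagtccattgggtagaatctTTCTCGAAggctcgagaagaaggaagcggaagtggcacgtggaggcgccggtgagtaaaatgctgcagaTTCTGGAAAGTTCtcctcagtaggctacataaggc
Hspd1: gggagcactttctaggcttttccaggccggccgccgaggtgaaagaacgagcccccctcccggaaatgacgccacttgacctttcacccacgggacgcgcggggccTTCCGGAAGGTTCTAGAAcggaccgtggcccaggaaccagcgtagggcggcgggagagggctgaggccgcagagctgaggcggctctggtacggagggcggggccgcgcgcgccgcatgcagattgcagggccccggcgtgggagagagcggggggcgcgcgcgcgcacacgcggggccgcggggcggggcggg
Hsp90b1: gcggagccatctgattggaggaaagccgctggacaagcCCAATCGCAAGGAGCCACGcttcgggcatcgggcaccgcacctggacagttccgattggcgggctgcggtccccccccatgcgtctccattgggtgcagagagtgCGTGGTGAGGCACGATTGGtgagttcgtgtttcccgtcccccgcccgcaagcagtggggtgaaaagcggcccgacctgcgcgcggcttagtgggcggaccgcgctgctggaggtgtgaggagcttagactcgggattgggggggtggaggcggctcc
Dnajc3: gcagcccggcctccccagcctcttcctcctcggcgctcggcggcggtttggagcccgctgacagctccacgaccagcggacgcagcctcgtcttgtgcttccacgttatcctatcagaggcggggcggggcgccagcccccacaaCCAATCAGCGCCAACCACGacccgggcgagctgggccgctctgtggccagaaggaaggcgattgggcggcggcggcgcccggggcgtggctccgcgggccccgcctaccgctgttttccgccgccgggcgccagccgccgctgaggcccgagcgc
A promoter of this length was listed for 52 of the 64 members (69 promoters, since some genes have several starts). A heat shock element in either form was present in 17 of the 69 (24.6%), against 15.1% of all 32851 promoters in the table, and an ER stress element in 3 of the 69 (4.35%), against 0.119% of all. By compartment, the heat shock element was present in 27.1% of 48 cytosolic or nuclear promoters, 10.0% of 10 ER promoters and 33.3% of 6 mitochondrial promoters. The mitochondrial share came from Hspd1 and Hspe1, whose promoters overlap on opposite strands, so that the same stretch was counted for both. Overlapping promoters of Hsph1 and of Dnajb6 were likewise counted separately. All 3 promoters with the ER stress element (Hspa5, Hsp90b1 and Dnajc3) belonged to ER members. A match describes the letters in the window and is not evidence of binding.

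Signals were taken on the log2 scale after quantile normalization, which gives every array the same distribution. On each array 8958 to 9923 of 25697 probes were detected, meaning a detection p under 0.01 against the negative control beads. The labelled cell type was checked with its markers. All 6 measured macrophage markers (Adgre1, Itgam, Lyz2, Mertk, Fcgr1 and Cd14) were detected on all 12 arrays, as were 1 of 7 neutrophil markers (S100a8), 0 of 5 lymphocyte markers, 0 of 4 dendritic cell markers and 0 of 4 stromal and erythroid markers (Col1a1 was detected on 6). The array LPS replicate 1 stood apart, since 778 probes (3.03%) lay more than 1 log2 unit from the mean of the other arrays of its group, against 0.035 to 1.08% on the other 11 arrays. The treatment itself registered, as Tnf, the early cytokine gene, rose from 8.03, 9.23 and 8.48 in untreated BMDM to 11.54, 13.05 and 13.51 with LPS (log FC 4.12, limma adjusted p = 0.0165).

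Of the 64 members, 30 were detected on all 12 arrays (46.9%, against 35.4% of all genes), 28 on no array and 6 on some of them. The detected members comprised 14 of the 41 cytosolic or nuclear genes, 6 of the 11 ER genes, 7 of the 8 mitochondrial genes and 3 of the 4 not assigned. Mean signals of the 30 ran from 6.20 (Dnajc27) to 13.81 (Hspa8) with a median of 8.37, while the 28 undetected members lay between 5.31 and 5.77. Levels of different probes are not amounts of RNA and were not ranked against each other. The cytosolic members with a probe not well above background on any array included Hsp90aa1 (the inducible HSP90), Hspb1 (a small heat shock protein), Dnaja1 and Dnajb4 (partners of cytosolic HSP70). In the ER the same was true of Hspa5 (BiP, the HSP70 of the ER lumen) and Hspa13 (a microsomal HSP70-like ATPase). For these genes the arrays give no measure of a change, and the low signal does not show that the transcript was absent. Hspa1b, Hsp90ab1, Dnajb11 and Hsf1 had no named probe in the annotation used here and were not analysed.

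The first question was whether LPS alone altered chaperone transcripts within 1 h. None of the 64 members passed the test in LPS against untreated, where limma called 27 of 25697 probes (0.105%), all higher. At an unadjusted p under 0.05, 3 of 64 members were past the threshold (Hspa1a and Dnajc27 higher with LPS, Dnajc5 lower), against 3.23% of all probes, a share near that of all probes. Groups did not overlap for 4 of the 64, against 7.57% of all probes. Of the 30 members detected on all arrays, 2 were past that unadjusted p (4% of detected probes) and 2 had groups that did not overlap (4.69%). Hspa1a, the stress-inducible cytosolic HSP70, had the largest positive log FC of the 64. Its signal was 6.27, 5.91 and 5.99 in untreated BMDM, 6.18, 5.92 and 6.06 with hBD3, 6.54, 6.26 and 6.48 with LPS, and 6.24, 5.92 and 6.29 with LPS plus hBD3. The LPS arrays were the highest of each replicate number, although the lowest of them lay just under the highest untreated array. The log FC was 0.37 ± 0.13 (SE), a 1.29-fold difference, with a 95% CI of 0.09 to 0.65 (limma unadjusted p = 0.0145, adjusted p = 1.00). With the replicate number added to the fit as a block, the limma unadjusted p of Hspa1a was 0.000362 (adjusted p = 0.106). In that fit 0 members were called and 5 of 64 were past an unadjusted p of 0.05, against 5.75% of probes. The Hspa1a probe was close to background, being detected on 9 of 12 arrays (2 of 3 untreated and all 3 with LPS), and whether it also bound transcripts of the near-identical neighbor Hspa1b was not tested.

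Dnajc5, the cysteine string protein that partners Hspa8 in vesicle release, showed the lowest unadjusted p of the members. Its signal was 11.17, 11.10 and 11.06 in untreated BMDM, 10.97, 10.89 and 10.84 with hBD3, 10.50, 10.90 and 10.89 with LPS, and 10.85, 10.81 and 10.88 with LPS plus hBD3. Each treated array lay below all 3 untreated arrays, and the lowest value belonged to LPS replicate 1. The treated groups were set against the same untreated arrays, so their differences from untreated are not independent of each other. The log FC with LPS was -0.34 ± 0.10 (95% CI -0.56 to -0.13, limma unadjusted p = 0.00472, adjusted p = 1.00). Without LPS replicate 1 the log FC of Dnajc5 was -0.21 ± 0.07 (limma unadjusted p = 0.00957). Dnajc27, a Rab-like GTPase with a J domain, ranged from 6.02 to 6.20 in untreated BMDM and from 6.22 to 6.53 with LPS. Its log FC was 0.22 ± 0.09 (limma unadjusted p = 0.0361) with groups that did not overlap, and 0.13 ± 0.09 without LPS replicate 1 (limma unadjusted p = 0.16).

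For the other cytosolic members the 95% CI spanned 0. Hspa8, the constitutive HSP70, was at 13.88, 13.72 and 13.88 in untreated BMDM and 13.88, 13.88 and 13.85 with LPS. These arrays overlapped almost entirely, and the log FC of 0.04 had a 95% CI of -0.09 to 0.17. The Hspa8 probe lay near the top of the shared distribution. There quantile normalization gave the same value to untreated replicates 1 and 3 and to LPS replicates 1 and 2. The narrow interval of Hspa8 is therefore not a close bound on a change of its transcript. Dnajb1, the main DnaJ partner of inducible HSP70, gave -0.03 (95% CI -0.17 to 0.11), and Hsph1, an HSP110 exchange factor, gave 0.02 (95% CI -0.37 to 0.41). Dnaja2, another cytosolic partner of HSP70, gave 0.09 ± 0.12 and Dnajb6, which holds aggregation-prone proteins, gave 0.06 ± 0.15. Hspa4, a further exchange factor detected on 4 arrays, gave -0.08 ± 0.10. Dnajb2, a J protein best known from neurons, gave 0.20 ± 0.11 and Dnajc24, a J protein of diphthamide synthesis, gave 0.14 ± 0.08. Without LPS replicate 1 these were 0.07 ± 0.08 and 0.05 ± 0.07, and those of Dnaja2, Dnajb6 and Hsph1 were -0.01, 0.19 and -0.12. Dnajc12, a J protein that binds aromatic amino acid hydroxylases, gave 0.28 ± 0.21, with 8.30 on LPS replicate 1 above the 7.27 and 7.64 of the other LPS arrays and 0.00 ± 0.13 without it. The largest negative value, -0.53 ± 0.37 for Hspbp1, a nucleotide exchange factor of HSP70, rested on LPS replicate 1, which read 6.37 where the other LPS arrays read 8.10 and 8.07. Without that array the log FC of Hspbp1 was 0.04 ± 0.16. Hspbap1, a protein that binds small heat shock protein Hspb1, had the largest positive value among members with no assigned compartment (0.31 ± 0.19, limma unadjusted p = 0.138).

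No ER or mitochondrial member was past an unadjusted p of 0.05 in limma with LPS. Among ER members, Hsp90b1 was at 11.16, 10.79 and 10.86 in untreated BMDM and 11.49, 10.92 and 10.78 with LPS (log FC 0.12 ± 0.19). The groups overlapped, with replicate 1 the highest array of both. Dnajc3, an ER luminal co-chaperone that restrains the kinase PERK, was at 7.08, 6.89 and 7.05 in untreated BMDM and 7.25, 7.03 and 7.28 with LPS (log FC 0.18 ± 0.09, limma unadjusted p = 0.0681). Dnajb9, a BiP partner, gave -0.15 ± 0.15 and Dnajc10, a disulfide reductase of the ER, gave 0.04 ± 0.25. Among mitochondrial members, Hspa9 (mortalin, the matrix HSP70) gave 0.03 ± 0.12, Hspd1 0.06 ± 0.17, Hspe1 0.13 ± 0.18, Dnaja3 (a matrix partner of Hspa9) 0.14 ± 0.11, and Dnajc15 and Dnajc19 (J proteins of the inner membrane) 0.05 ± 0.17 and 0.04 ± 0.10. Several of these values changed when LPS replicate 1 was left out. Without that array the log FC with LPS was -0.09 ± 0.16 for Hsp90b1, -0.18 ± 0.24 for Dnajc10, -0.06 ± 0.15 for Hspe1 and -0.12 ± 0.16 for Dnajc15, each of the opposite sign. It was -0.04 ± 0.16 for Dnajb9, 0.05 ± 0.12 for Dnaja3, 0.12 ± 0.12 for Hspa9 and 0.14 ± 0.18 for Hspd1. Untreated replicate 1 stayed in that fit, and Hsp90b1, Dnajc10, Hspe1 and Dnajc15 had their highest mean in replicate 1. Their changes of sign therefore cannot be told apart from differences between replicate numbers. Over the 30 detected members 23 had a positive log FC with all arrays (76.7%, against 58% of detected genes) and 16 without LPS replicate 1 (53.3%, against 45.6%). In the fit of brightest probes without the block, the 95% CI lay within a log FC of -1 to 1 for 29 of the 30 detected members. For 21 of them it lay within -0.5 to 0.5. These intervals bound a change of the probe signal, and for Hspa8 not closely that of its transcript. Second probes were not counted, and that of Hspa8 had means of 10.40 in untreated BMDM and 8.73 with LPS.

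**Figure D1:**
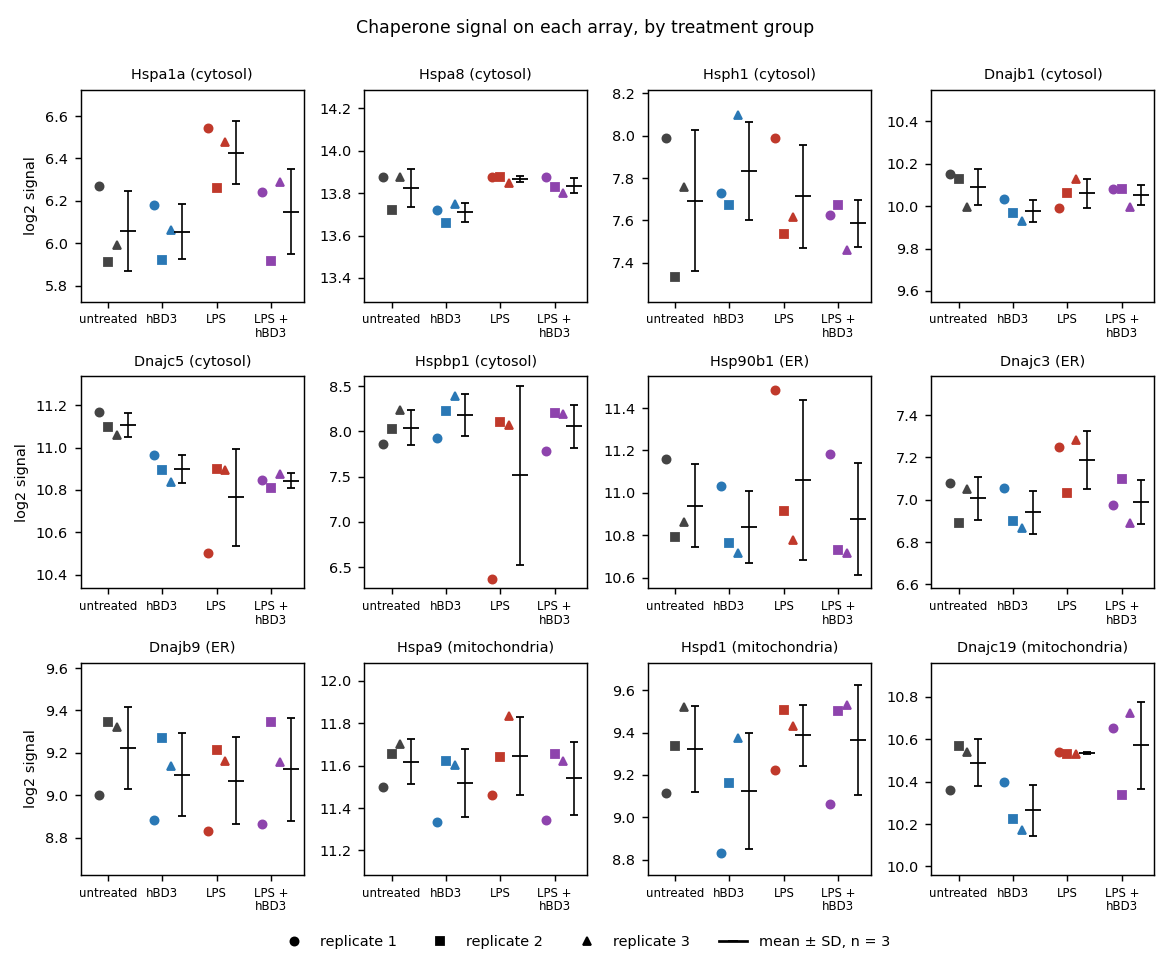
Log2 signal after quantile normalization (y axis, scales differ between panels) of 12 chaperone genes on each array, by treatment group (x axis), with replicate numbers as symbols and the mean ± SD of 3 arrays in black. Hspa1a with LPS reads 6.26 to 6.54 and Dnajc5 lies below the untreated arrays in every treated group, while LPS replicate 1 sets the spread of Hspbp1.

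The second question was whether hBD3 altered the chaperones of LPS-treated BMDM. Again none of the 64 members passed, where limma called 14 probes (0.0545%), all lower with hBD3. At an unadjusted p under 0.05, 2 of 64 were past the threshold (Dnajc11 higher and Dnajc3 lower), against 3.7% of all probes, and the groups did not overlap for 4 of 64, against 7.89%. Of the 30 detected members 1 was past that unadjusted p (3.56% of detected probes) and 1 had groups that did not overlap (6.37%). The replicate numbers were taken to pair the arrays in all comparisons but LPS against untreated. With the number as a block limma called 42 probes (0.163%) and 0 members, and 6 of 64 members were past an unadjusted p of 0.05, against 5.76% of probes. These were Dnajc11, which was higher, and Hspa1a, Dnajc17, Dnajc2, Dnajc3 and Hsp90b1, which were lower. When hBD3 was added to LPS the signal of Hspa1a was lower in all 3 replicate numbers, by 0.30, 0.34 and 0.19 log2 units (log FC -0.28 ± 0.13, 95% CI -0.56 to 0.00, limma unadjusted p = 0.0511). With the block the same difference had an SE of 0.07 and a limma unadjusted p of 0.00272 (adjusted p = 0.499), and without LPS replicate 1 it was -0.22 ± 0.14. The mean with LPS plus hBD3 was 0.09 ± 0.13 above untreated. The effect of hBD3 on Hspa1a with LPS minus that without LPS was -0.27 ± 0.18 (95% CI -0.67 to 0.12, limma unadjusted p = 0.155, adjusted p = 1.00), with a limma unadjusted p of 0.0207 under the block (adjusted p = 0.99). Because LPS against untreated and LPS plus hBD3 against LPS share the LPS arrays, opposite signs in the 2 comparisons are not independent of each other.

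Dnajc3 was at 6.98, 7.10 and 6.89 with LPS plus hBD3, where the first and last lay below all 3 LPS arrays (log FC -0.20 ± 0.09, limma unadjusted p = 0.0478). Dnajc11, a protein of the mitochondrial inner membrane organizing system, read 5.62 to 5.69 with LPS plus hBD3 and 5.49 to 5.52 with LPS (log FC 0.14 ± 0.06, limma unadjusted p = 0.0342). The Dnajc11 probe was not detected on any array, so that this difference lies within the background range. Dnajc17, a J protein with an RNA recognition motif, was detected on 9 arrays and read 6.53, 6.16 and 6.04 with LPS and 6.08, 5.54 and 6.08 with LPS plus hBD3 (-0.34 ± 0.16, limma unadjusted p = 0.0544). Those groups overlapped at the lowest LPS array. Hspbap1 (-0.31 ± 0.19) and Dnajc27 (-0.19 ± 0.09) were lower and Hspbp1 (0.54 ± 0.37) was higher, the last through LPS replicate 1, without which its log FC was -0.03 ± 0.16. Hspa8 (-0.03 ± 0.06), Dnajb1 (-0.01 ± 0.06), Hspd1 (-0.02 ± 0.17) and Dnaja3 (-0.03 ± 0.11) differed by less than their error. Taken within replicate numbers, 3 of the 30 detected members were higher with LPS plus hBD3 than with LPS in all 3 numbers, 5 were lower in all 3 and 22 were mixed, against 13.6% of detected probes higher and 16.9% lower. Those higher in all 3 were Dnajc16, Dnajc30 and Hspbp1, and those lower were Dnaja2, Dnajc2, Dnajc27, Dnajc10 and Hsp90b1. Without LPS replicate 1 the log FC of Hsp90b1 went from -0.18 to 0.03 and that of Dnajc10 from -0.11 to 0.12. LPS plus hBD3 replicate 1 stayed in that fit, and both genes were high on all replicate 1 arrays. The change of sign therefore does not show that their lower values rested on LPS replicate 1.

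**Figure D2:**
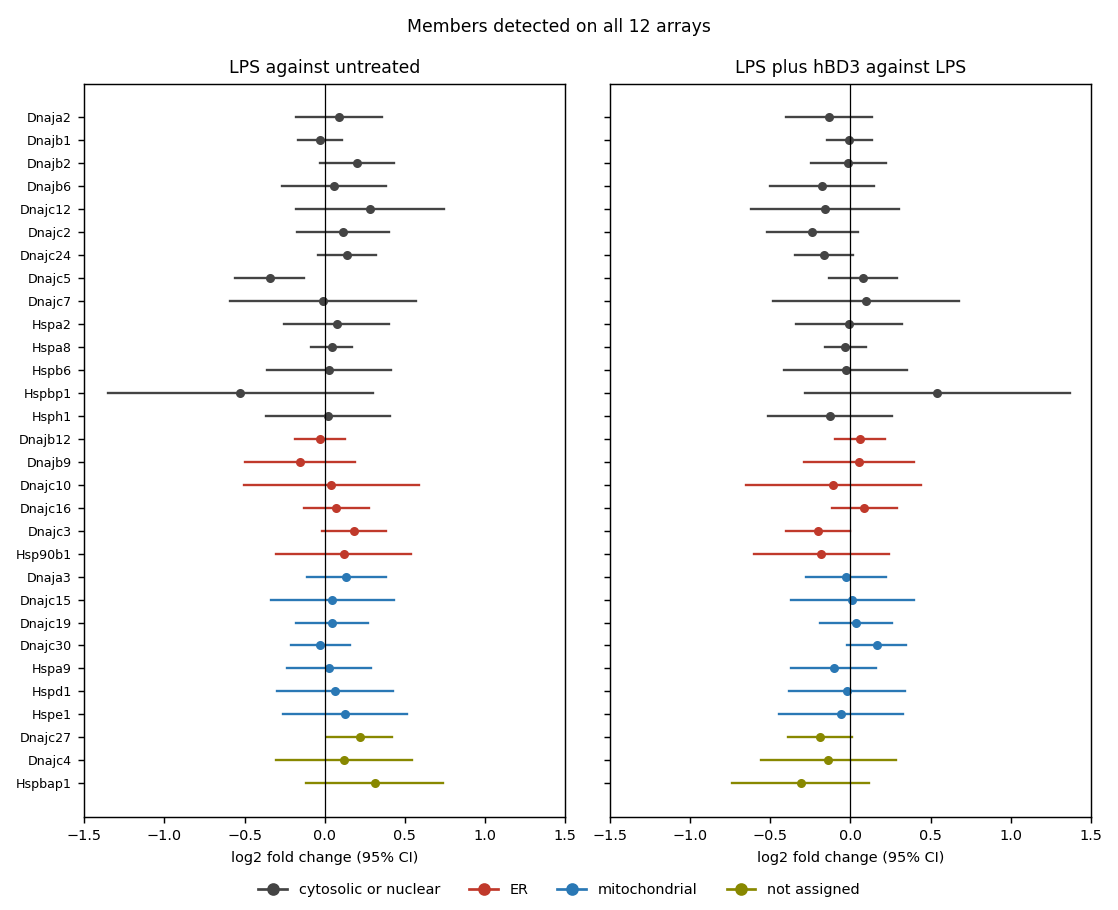
Log2 fold change with 95% CI (x axis, limma) of the 30 members detected on all 12 arrays (y axis), colored by compartment, for LPS against untreated and LPS plus hBD3 against LPS. Most intervals span 0, Dnajc5 lies at -0.34 with LPS, and Hspbp1 has the widest interval.

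Peptide alone and the combination were also set against untreated BMDM. With hBD3 alone limma called 0 probes (0%) and 0 members, 1 of 64 members being past an unadjusted p of 0.05 (2.39% of all probes). This member was Dnajc19, a subunit of the motor that imports proteins into the matrix. It was at 10.36, 10.57 and 10.54 in untreated BMDM and 10.40, 10.22 and 10.17 with hBD3, with overlap at replicate 1 (log FC -0.23 ± 0.10, limma unadjusted p = 0.0487). A second probe of Dnajc19, detected on all 12 arrays, was not lower, with means of 6.25 in untreated BMDM and 6.30 with hBD3. Dnajc5 followed with -0.21 ± 0.10, Hspd1 with -0.20 ± 0.17 and Dnajc17 with -0.17 ± 0.16. The groups did not overlap for 5 of 64 members, against 8.11% of probes. Of the 30 detected members Dnajc19 was past that unadjusted p (3.12% of detected probes) and 2 had groups that did not overlap (6.25%). Within replicate numbers 3 of the 30 were higher with hBD3 in all 3 (Dnajb2, Dnajc30 and Hspbp1; 13.6% of detected probes) and 8 were lower in all 3 (Dnajb1, Dnajb9, Dnajc27, Dnajc5, Hsp90b1, Hspa8, Hspa9 and Hspd1), against 15.2% of detected probes. Second probes of Hspd1 (means 6.72 untreated and 6.74 with hBD3) and Hspa9 (9.70 and 9.72) were not lower with hBD3. The second probe of Hspa8 had means of 10.40 and 10.30, within its SD of 0.87 untreated and 0.71 with hBD3. In replicate 2 it was not lower (9.47 untreated and 9.50 with hBD3). With the number as a block limma again called 0 probes (0%), and Hspd1 was past an unadjusted p of 0.05 (limma unadjusted p = 0.0245; 3.94% of probes). The same count within numbers gave 3 higher and 2 lower with LPS (11.5% and 9.79% of detected probes) and 2 higher and 3 lower with LPS plus hBD3 (10.4% and 8.86%). With LPS plus hBD3 limma also called 0 probes (0%) and 0 members, 2 of 64 being past an unadjusted p of 0.05 (2.47% of probes). These were Dnajc5 (-0.27 ± 0.10, limma unadjusted p = 0.0198) and Dnajc11 (0.16 ± 0.06, limma unadjusted p = 0.0171). The groups did not overlap for 9 of 64 members, against 7.16% of probes, and for 2 of the 30 detected members, against 3.4% of detected probes, while 1 of the 30 was past the unadjusted p (1%). With the block limma called 2 probes (0.00778%) and 0 members, and 4 of 64 were past an unadjusted p of 0.05 (Dnajc5, Dnajc11, Dnaja4 and Hspa14), against 3.28% of probes. The probes of Dnajc11, Dnaja4 and Hspa14 were not detected on any array, so their differences lie within the background range. Dnajb2 read 0.19 ± 0.11 higher and Dnajc16, an ER J protein, 0.16 ± 0.09 higher. For the difference between the effects of hBD3 with and without LPS, 0 of 64 members were past an unadjusted p of 0.05 (2.56% of probes, and 2.01% of detected probes) and limma called 0 probes (0%). With the block limma called 20 probes (0.0778%) and 0 members, and Hspa1a and Dnajc2 were past an unadjusted p of 0.05 (3.9% of probes). The values farthest from 0 were 0.41 ± 0.53 for Hspbp1, -0.31 ± 0.18 for Dnajc2 (the ribosome-associated J protein) and 0.29 ± 0.14 for Dnajc5. A second probe of Dnajc2, detected on all 12 arrays, did not show its lower value with LPS plus hBD3. That probe had means of 6.13 in untreated BMDM, 6.04 with hBD3, 6.10 with LPS and 6.10 with LPS plus hBD3.

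Compartments were compared by the medians of their detected members, as a description. With LPS the median log FC was 0.05 over 14 cytosolic or nuclear members, 0.06 over 6 ER members and 0.05 over 7 mitochondrial members, beside 0.03 over all 5874 detected genes. With LPS plus hBD3 against LPS the medians were -0.03, -0.03 and -0.02, beside -0.02 over all detected genes. Without LPS replicate 1 the medians with LPS were 0.00, -0.05 and 0.04, beside -0.01 over all detected genes. Those of LPS plus hBD3 against LPS were -0.03, 0.06 and 0.06, beside 0.02, so that several medians changed sign. The other replicate 1 arrays stayed in these fits, so the changes also carry differences between replicate numbers. Among the 5 detected members known as targets of heat shock factor 1 (of 10 measured), 4 had a positive log FC with LPS (median 0.04), against 3405 of 5874 detected genes, and 0 with LPS plus hBD3 against LPS (median -0.03), against 2648. Among the 4 detected ER members known to be induced by ER stress (of 5 measured), 3 were positive with LPS (median 0.08) and 1 with LPS plus hBD3 against LPS (median -0.14), and limma called 0 of both sets. These counts changed in part when only LPS replicate 1 was left out. Without it the log FC with LPS became negative for Hsph1, Hspe1, Hsp90b1 and Dnajc10 and positive for Dnajb1. On adding hBD3 to LPS it became positive for Hsph1, Hspe1, Hsp90b1 and Dnajc10 and negative for Dnajb9. Median scaling in place of quantile normalization moved the compartment medians of LPS plus hBD3 against LPS to -0.33, -0.36 and -0.36, and moved that of all detected genes to -0.29, so that the shift was shared with the other detected genes. The detected members with a heat shock element in a listed promoter (7 genes) had a median log FC of 0.06 with LPS and those without (17 genes) 0.07. With LPS plus hBD3 against LPS these medians were -0.11 and -0.01. Some signs behind the first of them changed when only LPS replicate 1 was left out. Without that array the log FC was positive for Dnajc10, Hspb6, Hspe1 and Hsph1 and negative for Dnajb6, Dnajc27 and Hspd1.

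Genes that work with the members were taken from 4 lists, and none passed the test with LPS against untreated or with LPS plus hBD3 against LPS. With LPS, 0 of 23 cofactors of HSP70 and HSP90, 0 of 12 subunits of the cytosolic chaperonin TRiC and prefoldin, 0 of 19 ER folding genes and 0 of 10 mitochondrial import and folding genes were called by limma. With LPS 2 of these 64 list genes were past an unadjusted p of 0.05, against 3.23% of all probes. They were Tcp1 (-0.28, limma unadjusted p = 0.00645) and Cct7 (0.19, limma unadjusted p = 0.0417), both subunits of TRiC, and the Cct7 probe was not detected on any array. Median log FC of the lists was 0.02, 0.02, -0.04 and 0.04. Calr (calreticulin, a lectin chaperone of the ER) had the largest value (-0.98 ± 0.57), again through LPS replicate 1, at 6.51 where the other LPS arrays read 8.66 and 9.17, and was -0.18 ± 0.33 without it. Herpud1, a target of the unfolded protein response, gave 0.31 (limma unadjusted p = 0.0773).

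Arrays of the same replicate number resembled each other across the 4 groups, a pattern looked for after the data had been seen. A limma F test of the replicate number beside the group means called 10 of the 64 members, among them 9 of the 30 detected members (30%), against 27.3% of the detected probes. The share was therefore close to that of other detected probes and is not particular to chaperones. The called members were Dnajc10, Dnajb9 and Hsp90b1 of the ER, Hspd1, Dnajc15 and Hspa9 of the mitochondria, and Hspa1a, Dnajc7, Hspb6 and Hspa2 of the cytosol. Dnajc10 was at 9.69, 9.63, 9.81 and 9.67 on the replicate 1 arrays of untreated, hBD3, LPS and LPS plus hBD3, at 9.19, 9.27, 9.18 and 9.11 on replicate 2, and at 9.08, 9.03, 9.09 and 8.98 on replicate 3. Replicate 1 lay above and replicate 3 below all other arrays whatever the treatment. The replicate number held 96.2% of the variance of Dnajc10 and the treatment 1.77% (limma F test, adjusted p = 7.85e-05).

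Hsp90b1 followed the same order at lower size, with means of 11.22, 10.80 and 10.77 for the replicate numbers, and replicate 1 lay above all other arrays. Dnajb9 went the other way, with means of 8.89, 9.29 and 9.19, replicate 1 below all others, and 87.1% of its variance in the replicate number. Of the mitochondrial members, Hspd1 had means of 9.06, 9.38 and 9.46 and Hspa9 of 11.41, 11.64 and 11.69, both lowest in replicate 1, while Dnajc15 was highest there (9.22, 9.01 and 8.78). In Hspa1a the treatment held 54.7% of the variance and the replicate number 38.2%. Over the 30 detected members the replicate number held a larger share than the treatment in 17 (56.7%), against 65.3% of all detected probes. The labels do not say whether equal numbers stand for a shared mouse, culture or array run, and these cannot be told apart.

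**Figure D3:**
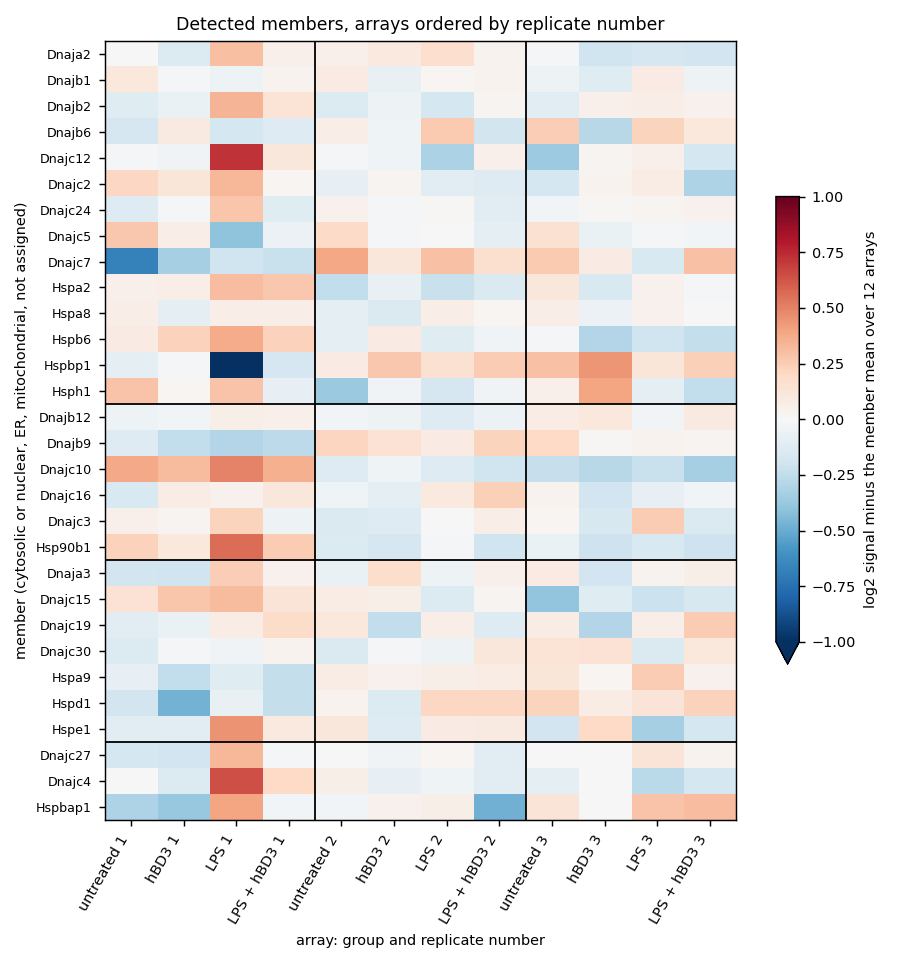
Log2 signal of the 30 detected members (rows, grouped by compartment) on the 12 arrays (columns, ordered by replicate number and then treatment) as the difference from each member's mean, with the color scale ending at -1 and 1. Dnajc10 and Hsp90b1 are high and Dnajb9 low on all replicate 1 arrays, and LPS replicate 1 holds the extreme values of Hspbp1 and Dnajc12.

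Several probes of a gene did not always give the same picture. More than 1 probe was measured for 21 members, and for Hspa8, Dnajb6, Hspd1 and Hspa9 the second probe, detected on 10 to 12 arrays, parted from the brightest on LPS replicate 1. The second probe of Hspa8 read 5.97 there, 9.41 and 10.82 on the other LPS arrays and 9.36 to 11.19 over all 11 other arrays. The brightest probe of Hspa8 read 13.88 on the same array, within the range of the rest. The second probes of Dnajb6 (7.05, against 8.05 to 9.25 on the other arrays), Hspd1 (5.38, against 5.70 to 7.31) and Hspa9 (8.93, against 9.31 to 9.92) were also lowest on LPS replicate 1, with brightest probes inside the range of the other arrays. For these probes and for Hspbp1 the next lowest array was LPS plus hBD3 replicate 1. With the second probe the log FC of Hspa8 with LPS was -1.67 ± 1.00 (limma unadjusted p = 0.125), against 0.04 for the brightest. The cause of the low readings was not tested.

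**Figure D4:**
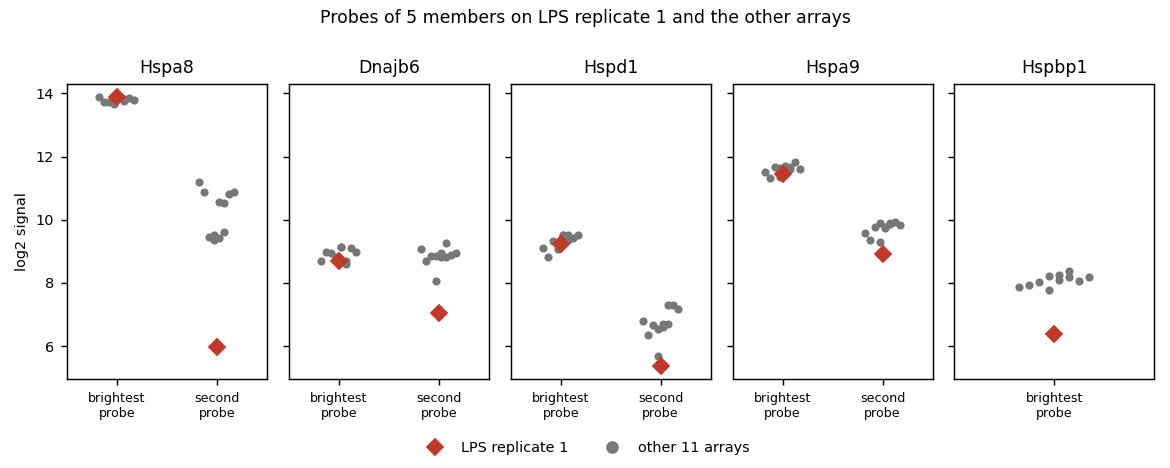
Log2 signal (y axis) of the brightest and second probe of 4 members and of the brightest probe of Hspbp1 (x axis), with LPS replicate 1 as red diamonds and the other 11 arrays as gray points. The red diamond falls below the other arrays for each second probe and for Hspbp1 and within them for the brightest probes of Hspa8, Dnajb6, Hspd1 and Hspa9.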

How the data were processed

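Total RNA of 12 BMDM cultures was hybridized to Illumina MouseRef-8 v2.0 arrays. The authors summarized each probe in BeadStudio and deposited linear signal intensities for 25697 probes, not normalized between arrays, with detection p-values that, per the file headers, BeadStudio gave each probe and array. They also deposited a table of quantile-normalized intensities, used here as an alternative. Their processing notes name limma with no version, and no BeadStudio version was given in the sources used here. For this report the deposited signal intensities were quantile normalized and log2 transformed, with no background correction and no filter, and limma 3.58.1 (R 4.3.3) was fitted to 4 group means over the 12 arrays. Each comparison had its p-values corrected (Benjamini-Hochberg, 25697 probes) with 0.05 as the threshold. Errors are SE of the log FC unless named as SD. The number of arrays limits the precision, and the fit was tested on simulated data.

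Probes with 1 symbol (23978) were named from the platform annotation, 1719 had none, and all 64 member symbols matched RefSeq. The members, compartments and gene lists were chosen with earlier results of these data known. Named genes were a set fixed by role, those past the threshold in any comparison, the 4 members with the largest absolute log FC in each comparison among those detected on all 3 arrays of a compared group, and those with non-overlapping groups and an unadjusted p under 0.05. Dnajc12, Dnajc24, Calr, Tcp1, Cct7, Herpud1, second probes and members named for the replicate pattern, for their direction within replicate numbers or for the replicate block were named after their values were seen. Replicate numbers are shared between groups in the labels. Deviations from group means correlated between arrays of equal number by 0.0726 to 0.662 over all probes in 18 pairs. Only the pair of untreated and LPS replicate 2 was under 0.1 (0.15 over detected probes). By this rule the numbers were taken to pair the samples in every comparison but LPS against untreated. A low correlation in 1 pair does not show that those arrays were unpaired, so that comparison is also given with the block. Alternatives were median scaling, neqc (offset 16), the deposited normalized table, a filter for detection on 3 arrays or more, a replicate block, fitting only the arrays compared, weighting arrays, a robust variance with a trend, and omission of each array in turn. An F test of the replicate number was added after the data were seen. The searches also covered a second ER stress element and the core of the unfolded protein response element, matched in 0 member promoters and in 0.0365% and 0.676% of all. Promoters and figures were handled in Python 3.11.15 with matplotlib 3.10.9.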

Additional observations from a re-analysis of the deposited data

How the results depend on the processing

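The count of members called by limma was 0 in each of the 5 comparisons and stayed at 0 under all the alternatives run, including leaving out each of the 12 arrays (0 to 0). With the replicate number as a block the count was also 0 in each comparison, and the block changed no call of a member. In LPS against untreated, where the numbers were not taken to pair the arrays, the block took the probes called from 27 to 72 (0.28%) and the members past an unadjusted p of 0.05 from 3 to 5 (5.75% of probes). The lowest adjusted p of a member under the block was 0.106 for Hspa1a in LPS against untreated (unadjusted p = 0.000362, log FC 0.37 ± 0.07) and 0.499 for Hspa1a in LPS plus hBD3 against LPS. Over all alternatives the log FC of Hspa1a with LPS ran from 0.30 without untreated replicate 2 to 0.60 with neqc. None of 3133 alternative log FC values of the named members passed the threshold, and 200 had the opposite sign, among them Hspbp1 without LPS replicate 1. Without that array 13 of the 30 detected members changed sign with LPS over untreated, as did 13 on adding hBD3 to LPS. On adding hBD3 the median log FC of the 30 went from -0.03 to 0.01 and that of all detected genes from -0.02 to 0.02. The other replicate 1 arrays stayed in that fit, so these changes also carry differences between replicate numbers. Leaving out all replicate 1 arrays together was not among the alternatives. The count of members differing between replicate numbers was 10, became 26 with median scaling, where 76.7% of detected members and 64.9% of detected probes were called, and ranged from 6 to 10 when 1 array was left out (6 without hBD3 replicate 1 or LPS plus hBD3 replicate 1). The cause was not tested. Of 297 alternative medians of the compartments, 41 moved by more than the spread between replicates. A dim probe limits what could be seen, since 28 members were detected on no array.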
